A study of Mus musculus with 2 samples.

Results

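Genes for the enzymes that make, oxidise, cleave and hydrolyse acyl-CoA were examined in isolated proximal tubular (PT) cells of KAT5 KO and wild-type mice. The genes were taken by symbol from 8 families, which were acyl-CoA dehydrogenases (Acad), acyl-CoA oxidases (Acox), thiolases (Acaa and Acat), long-, medium- and short-chain acyl-CoA synthetases (Acsl, Acsm and Acss) and acyl-CoA thioesterases (Acot). This gave 41 of the 19505 genes with a symbol on the array, each read by 1 probe set. KAT5 KO mice carried γGT-Cre and loxP-flanked Kat5 alleles, so that KAT5, a histone acetyltransferase also known as TIP60, was to be deleted in PT cells. By the paper, γGT is expressed along the whole PT, and intensely in its last segment. Wild-type mice were the comparison, and both samples were labelled as male mice of 8 weeks with no treatment. One label field of each sample also speaks of embryos, and whether the wild-type mice of the array carried loxP-flanked alleles is not given in the sources used here. PT cells were enriched from minced kidneys with magnetic beads, which removed endothelial cells by CD31 and then picked out cells carrying Prominin1, and 64 ng of total RNA of each genotype was hybridised to 1 Clariom S mouse array. How many mice gave the RNA of an array is not given in the sources used here. With 1 array per genotype there was no spread between animals, no error could be set on any difference and no test was run, so that each value below describes these 2 arrays.

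PT cells reabsorb most of the filtered solutes and draw the energy for this work largely from fatty acids. A fatty acid is first joined to coenzyme A by a synthetase, which traps it in the cell. In mitochondria an acyl-CoA dehydrogenase then takes the first oxidative step of each round of β-oxidation, whereas in peroxisomes an acyl-CoA oxidase takes this step and passes the electrons to oxygen. A thiolase closes the round by releasing acetyl-CoA, and thioesterases run against the synthetases by splitting acyl-CoA back into fatty acid and coenzyme A. The genes of β-oxidation are known targets of PPARα, a nuclear receptor for fatty acids that binds DNA as a dimer with RXR.

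Levels are on the log2 scale of RMA, on which a difference of 1 is 2-fold, and differences are KAT5 KO minus wild-type. Kat5 itself had a level of 8.67 on the KAT5 KO array and 10.20 on the wild-type array, leaving 34.8% of it on the KAT5 KO array, and which exons its probes read is not given in the sources used here. Against the male label, Y-linked Eif2s3y was at 2.29, Uty at 3.42 and Kdm5d at 3.76 on the KAT5 KO array, against 10.11, 9.84 and 7.69 on the wild-type array. The levels of cell type markers differed between the arrays as well. All 29 PT markers were at least 2-fold higher on the KAT5 KO array, with a median difference of 6.66. At least 2-fold lower there were 7 of 8 loop of Henle markers and 12 of 14 markers of the distal tubule and collecting duct. So were 7 of 10 endothelial markers and 11 of 12 leukocyte markers. Over all measured genes (defined below), 17.7% were at least 2-fold higher and 15.9% at least 2-fold lower. Some markers were above the background level, given below, on 1 array only. Above it on both arrays, all 28 PT, 11 of 13 distal tubule and collecting duct and 5 of 7 endothelial markers passed 2-fold likewise. Genotype, marker levels and Y-linked levels differ between the same 2 arrays, and so perhaps do cell mix and the animals' sex. Their parts cannot be told apart. In RNA of mixed cells, fewer cells of a type and less RNA per cell cannot be told apart either. Neither array could be left out, since each is the sole array of its genotype.

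On the KAT5 KO array, most of the acyl-CoA genes had higher levels than on the wild-type array. Of the 41 genes, 24 were at least 2-fold higher on the KAT5 KO array, 2 were at least 2-fold lower, 11 lay within 2-fold and 4 were not above background on either array. Among all 11652 measured genes, 17.7% were at least 2-fold higher and 15.9% at least 2-fold lower. Measured here means above the background level of 5.13 on 1 or both arrays, a level that 1448 receptor genes of smell, pheromones and taste rarely passed. The median difference of the 37 measured acyl-CoA genes was 1.503 (2.83-fold), against -0.05 over all measured genes. Acsm5, Acot4 and Acot6 passed this filter only through the KAT5 KO array and Acsm4 only through the wild-type array. The differences of these genes are lower bounds. Acsm4 is counted within 2-fold by its bound of -0.07, so that its side of 2-fold is not known. Of the other 33 genes, which were above background on both arrays, 21 were at least 2-fold higher and 2 were lower, with the same median. At 1.5-fold, 27 of the 41 genes were higher and 2 lower, beside 26.6% and 26.9% of all measured genes. At 3-fold, 18 were higher and 1 lower, beside 10.7% and 7.87%.

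**Figure D1:**
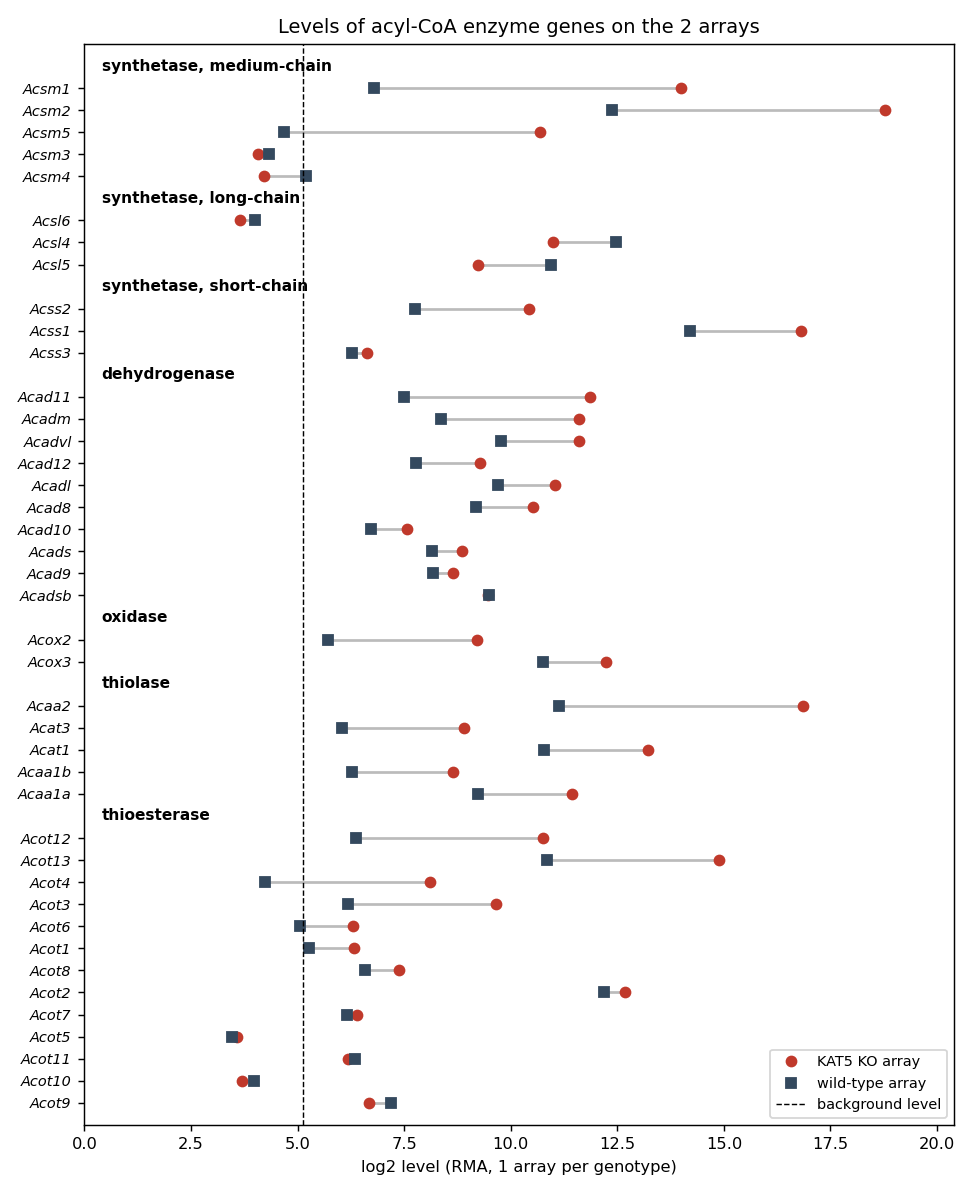
Log2 levels of the 41 acyl-CoA enzyme genes (x axis) on the KAT5 KO array (circles) and the wild-type array (squares), by family, with the background level of 5.13 as a dashed line and no error bars since each genotype has 1 array. The widest gaps are those of Acsm1, Acsm2, Acsm5 and Acaa2, and Acsl4 and Acsl5 lie at least 2-fold the other way.

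The medium-chain synthetases held the widest differences of all the families and also genes that were near or under background on both arrays. These mitochondrial enzymes activate medium-chain fatty acids and join aromatic acids to coenzyme A. Acsm1 had a level of 14.00 on the KAT5 KO array and 6.79 on the wild-type array, a difference of 7.21 (148.0-fold), and 99.6% of the measured genes had a smaller difference. Acsm2, known for its abundance in the kidney, was at 18.78 on the KAT5 KO array and 12.37 on the wild-type array, 85.2-fold higher. Acsm5 was at 10.68 on the KAT5 KO array and 4.68, under background, on the wild-type array, at least 46.7-fold higher. These 3 genes therefore lay far above their wild-type levels, while the remaining 2 did not. Acsm4, known from the olfactory epithelium, was at 4.20 on the KAT5 KO array and 5.20 on the wild-type array, just above background on the wild-type array only. Acsm3 was at 4.08 on the KAT5 KO array and 4.33 on the wild-type array and was above background on neither.

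The 5 Acsm genes are neighbours on chromosome 7, in the order Acsm5, Acsm2, Acsm1, Acsm4 and Acsm3, with Thumpd1 between the last pair. The split followed this order, with the 3 genes at one end far higher on the KAT5 KO array and the other 2 at or near background. On the side of Acsm5, past the testis gene Pdilt, lies Umod, which encodes uromodulin of the loop of Henle. Umod went the other way, at 15.65 on the KAT5 KO array and 19.93, the ceiling of the scale, on the wild-type array. Thumpd1 was at 6.76 on the KAT5 KO array and 6.07 on the wild-type array, and Eri2, next to Acsm3, at 5.53 on the KAT5 KO array and 6.14 on the wild-type array, both within 2-fold. The DNA just before these 5 genes is shown because neighbours of one family differed so widely. The sequences are those of RefSeq on GRCm38.p6, from the start of the promoter window to the last base before the annotated gene, and capitals mark the letters TATAAA.
Acsm5, chr7:119526015-119526130, + strand: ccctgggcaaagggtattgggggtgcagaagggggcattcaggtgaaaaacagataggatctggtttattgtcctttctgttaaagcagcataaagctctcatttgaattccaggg
Acsm2, chr7:119554090-119554339, + strand: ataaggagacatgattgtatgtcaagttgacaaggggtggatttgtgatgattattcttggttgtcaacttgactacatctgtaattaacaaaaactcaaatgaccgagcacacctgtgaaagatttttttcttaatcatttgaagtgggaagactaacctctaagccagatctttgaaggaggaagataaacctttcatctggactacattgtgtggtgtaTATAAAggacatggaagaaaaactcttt
Acsm1, chr7:119617562-119617756, + strand: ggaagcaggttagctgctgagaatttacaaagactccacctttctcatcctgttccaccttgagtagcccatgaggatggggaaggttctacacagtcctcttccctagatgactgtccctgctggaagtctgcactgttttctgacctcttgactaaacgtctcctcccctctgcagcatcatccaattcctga
Acsm4, chr7:119689776-119690025, + strand: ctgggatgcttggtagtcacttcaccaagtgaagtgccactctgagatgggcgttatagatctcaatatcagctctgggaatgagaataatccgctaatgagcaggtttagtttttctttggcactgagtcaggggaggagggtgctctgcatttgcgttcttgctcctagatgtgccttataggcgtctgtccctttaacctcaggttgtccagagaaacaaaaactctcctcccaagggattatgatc
Acsm3, chr7:119760673-119760882, + strand: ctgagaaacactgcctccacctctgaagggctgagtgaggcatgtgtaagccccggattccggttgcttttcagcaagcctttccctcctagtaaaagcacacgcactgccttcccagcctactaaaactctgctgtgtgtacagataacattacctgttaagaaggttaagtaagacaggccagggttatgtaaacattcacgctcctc
Of these 5 stretches, only that of Acsm2 held TATAAA, from 28 to 23 bases before the start of transcription. In the 250 bases before a start, on either strand, 12.4% of all 32851 windows held it. The stretches shown for Acsm5, Acsm1 and Acsm3 are shorter, at 116, 195 and 210 bases. The windows of Acsm1 and Acsm5, also far higher on the KAT5 KO array, held none.

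**Figure D2:**
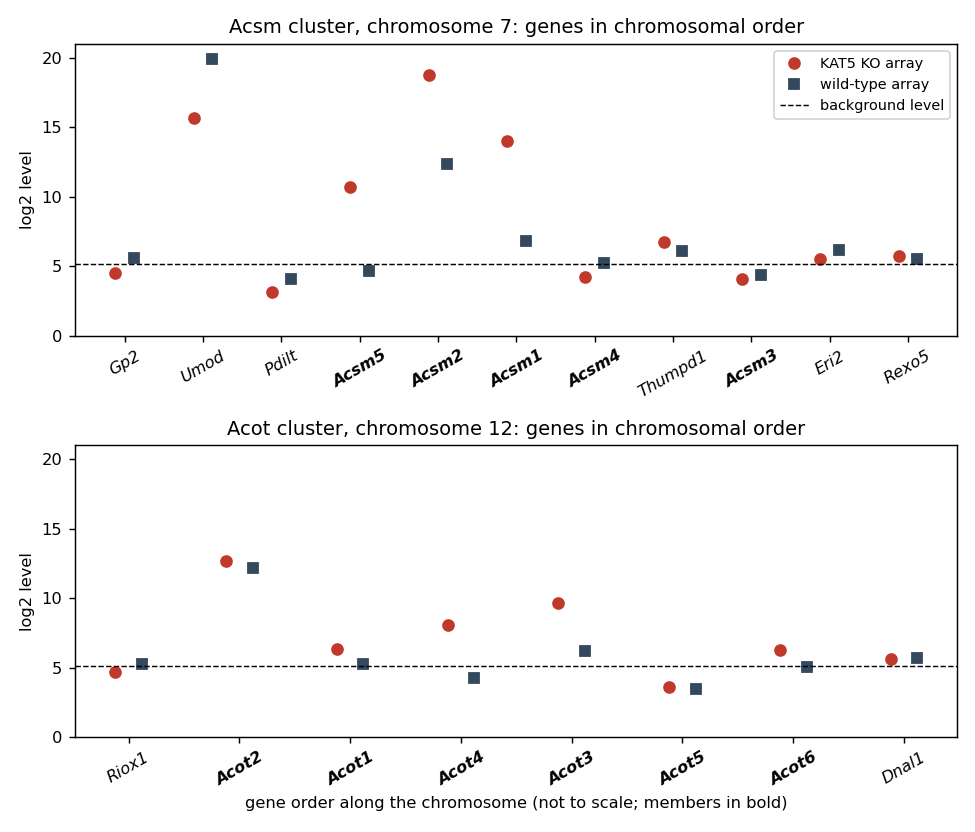
Log2 levels (y axis) on the KAT5 KO array (circles) and the wild-type array (squares) of the genes around the Acsm cluster on chromosome 7 and the Acot cluster on chromosome 12, in chromosomal order and not to scale, with the members in bold and the background level of 5.13 dashed. Acsm5, Acsm2 and Acsm1 stand apart from their neighbours, and in the Acot cluster Acot4 and Acot3 do.

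The long-chain synthetases were the one family with genes at least 2-fold lower on the KAT5 KO array. They activate the common dietary and membrane fatty acids at the outer membrane of mitochondria, the endoplasmic reticulum and other membranes. Acsl5 was at 9.24 on the KAT5 KO array and 10.94 on the wild-type array, 3.24-fold lower, and 6.74% of the measured genes had a more negative difference. Acsl4, which prefers arachidonate and feeds it into phospholipids, was at 11.00 on the KAT5 KO array and 12.46 on the wild-type array, 2.75-fold lower. Acsl6, known from brain, was at 3.66 on the KAT5 KO array and 4.01 on the wild-type array, under background on both. Of all measured genes, 15.9% were at least 2-fold lower. Both measured long-chain synthetase genes lay on the side of all the marker lists of other cells. The median differences were -3.87 for loop of Henle, -2.58 for distal tubule and collecting duct, -2.15 for leukocyte and -1.16 for endothelial markers. The part of these cells in the levels of Acsl4 and Acsl5 was not tested.

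The short-chain synthetases activate acetate and propionate. Acss1, the acetate enzyme of mitochondria, was at 16.82 on the KAT5 KO array and 14.20 on the wild-type array, 6.13-fold higher. Acss2, its counterpart in cytosol and nucleus, was at 10.42 on the KAT5 KO array and 7.75 on the wild-type array, 6.37-fold higher. Acss3, which takes propionate, was at 6.64 on the KAT5 KO array and 6.28 on the wild-type array, within 2-fold. The acetate enzymes of both compartments were thus higher by much the same amount, whereas the propionate enzyme was not past 2-fold.

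Of the 10 acyl-CoA dehydrogenases, 6 were at least 2-fold higher on the KAT5 KO array and 0 were lower. The shares of all measured genes were 17.7% and 15.9%. The median difference of the dehydrogenases was 1.34. Among those named for chain length, Acadvl (very long chains) was at 11.60 on the KAT5 KO array and 9.78 on the wild-type array, 3.54-fold higher. Acadl (long chains) was at 11.05 on the KAT5 KO array and 9.70 on the wild-type array, 2.55-fold higher. Acadm (medium chains) was at 11.61 on the KAT5 KO array and 8.37 on the wild-type array, 9.45-fold higher. Acadm thus had the widest gap of this set, and whether the differences of the families followed chain length was not tested. Acads (short chains) was at 8.85 on the KAT5 KO array and 8.14 on the wild-type array, 1.64-fold higher and so short of 2-fold.

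The remaining dehydrogenases were spread from no difference to the widest of the family. Acad11, a family member of less settled substrates, was at 11.87 on the KAT5 KO array and 7.51 on the wild-type array, 20.5-fold higher. Its relatives Acad12 and Acad10, which are neighbours on chromosome 5, differed by 1.503 and 0.84. Acad12 was at 9.29 on the KAT5 KO array and 7.79 on the wild-type array, and Acad10 at 7.56 on the KAT5 KO array and 6.72 on the wild-type array, so that 1 of the pair passed 2-fold. A split was also seen between the enzymes of branched-chain amino acid breakdown. Acad8, of valine breakdown, was at 10.51 on the KAT5 KO array and 9.19 on the wild-type array, 2.50-fold higher. Acadsb, of isoleucine breakdown, was at 9.46 on the KAT5 KO array and 9.49 on the wild-type array. Acad9, which also serves the assembly of respiratory complex I, was at 8.66 on the KAT5 KO array and 8.18 on the wild-type array, within 2-fold.

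Both oxidases and all 5 thiolases were at least 2-fold higher on the KAT5 KO array, beside 17.7% of all measured genes. Acox2, the peroxisomal oxidase of branched chains and bile acid intermediates, was at 9.22 on the KAT5 KO array and 5.71 on the wild-type array, 11.4-fold higher. Acox3, which also takes branched chains, was at 12.23 on the KAT5 KO array and 10.77 on the wild-type array, 2.77-fold higher. Among the thiolases, the largest difference was that of Acaa2, which closes mitochondrial β-oxidation, at 16.85 on the KAT5 KO array and 11.13 on the wild-type array (52.9-fold). Its peroxisomal counterparts were higher by far less. Acaa1a was at 11.44 on the KAT5 KO array and 9.24 on the wild-type array (4.61-fold), and Acaa1b at 8.64 on the KAT5 KO array and 6.28 on the wild-type array (5.12-fold). Acaa1a and Acaa1b are close copies of each other, and how far their probes tell them apart was not examined. Acat1, the mitochondrial acetoacetyl-CoA thiolase of ketone bodies and isoleucine, was at 13.22 on the KAT5 KO array and 10.78 on the wild-type array, 5.41-fold higher. Acat3, a relative of the cytosolic thiolase Acat2, was at 8.91 on the KAT5 KO array and 6.03 on the wild-type array, 7.35-fold higher.

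The thioesterases were the most mixed family. Of 13 genes, 6 were at least 2-fold higher on the KAT5 KO array, 0 lower, 5 within 2-fold and 2 not above background. Acot4 and Acot6 were above background only on the KAT5 KO array. Of the 9 thioesterases above background on both arrays, 4 were higher, with a median difference of 0.80. Among all measured genes, 17.7% were at least 2-fold higher. Acot12, which hydrolyses acetyl-CoA in the cytosol, was at 10.75 on the KAT5 KO array and 6.38 on the wild-type array, 20.6-fold higher. Acot13, a small long-chain thioesterase of mitochondria, was at 14.90 on the KAT5 KO array and 10.86 on the wild-type array, 16.4-fold higher. These 2 genes had the widest differences among the thioesterases above background on both arrays, and neither belongs to the gene cluster on chromosome 12. The levels of Acot7, Acot8, Acot9 and Acot11 were within 2-fold, with differences from -0.51 for Acot9 to 0.80 for Acot8, the peroxisomal thioesterase of broad range. Acot10, a rodent relative of Acot9, was under background on both arrays, at 3.69 on the KAT5 KO array and 3.99 on the wild-type array.

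The 6 Acot genes of the cluster on chromosome 12, which are close copies of each other, were unequal in their differences. In chromosomal order they are Acot2, Acot1, Acot4, Acot3, Acot5 and Acot6. Acot2, the mitochondrial copy, was at 12.68 on the KAT5 KO array and 12.20 on the wild-type array, within 2-fold. Acot1, the cytosolic copy, was at 6.32 on the KAT5 KO array and 5.27 on the wild-type array, 2.06-fold higher and so just past the threshold. Acot3 and Acot4, which encode peroxisomal enzymes, had the widest differences of the cluster, that of Acot4 being a lower bound. Acot3 was at 9.64 on the KAT5 KO array and 6.19 on the wild-type array, 11.0-fold higher. Acot4, which takes succinyl-CoA and other dicarboxylic acyl-CoA in the mouse, was at 8.10 on the KAT5 KO array and 4.23, under background, on the wild-type array, at least 7.82-fold higher. Acot6 was at 6.30 on the KAT5 KO array and 5.06 on the wild-type array, at least 2.25-fold higher. Acot5 was under background on both arrays, at 3.57 on the KAT5 KO array and 3.46 on the wild-type array, although it lies between Acot3 and Acot6. The outer neighbours Riox1 and Dnal1 were within 2-fold. How far the probes tell these copies apart was not examined.

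By compartment, as assigned from textbook knowledge of each enzyme, peroxisomal and mitochondrial genes both had positive median differences. Of 9 peroxisomal genes, 7 were at least 2-fold higher on the KAT5 KO array, with a median difference of 2.28 over the 8 measured. Of 22 mitochondrial genes, 12 were at least 2-fold higher, with a median difference of 1.43 over the 20 measured. Above background on both arrays, 5 of 6 peroxisomal and 11 of 18 mitochondrial genes were at least 2-fold higher. Among all measured genes, 17.7% were. Among those above background on both arrays, the mitochondrial genes ranged from -0.51 for Acot9 to 7.21 for Acsm1. The 6 peroxisomal ones ranged from 0.80 for Acot8 to 3.51 for Acox2, and with fewer genes a range tends to be narrower. Acot4, also peroxisomal, is known only by its lower bound of 2.97 and could lie above Acox2. Of 5 cytosolic genes, 4 were at least 2-fold higher. Acot7, at 6.39 on the KAT5 KO array and 6.15 on the wild-type array, was not. The long-chain synthetases were set apart as a class of outer membranes, and both measured genes, Acsl4 and Acsl5, were at least 2-fold lower. Their median difference was -1.58. Acad11 and Acot11 were in none of these classes.

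Other genes of fatty acid oxidation, outside the 8 families, lay on the same side. Of 36 such genes listed, 32 carried a symbol on the array and 30 were measured. Of these, 24 were at least 2-fold higher on the KAT5 KO array and 2 were lower, beside 17.7% and 15.9% of all measured genes. Their median difference was 2.03. Only the KAT5 KO array was above background for 2 of the 30. Of the 28 genes above background on both arrays, 22 were higher and 2 lower. The peroxisomal genes were led by the isomerase gene Eci3 (6.94), Hacl1 (6.21), which shortens branched fatty acids by 1 carbon, and the bifunctional enzyme gene Ehhadh (5.32). In this list 14 of 15 measured genes were higher and Abcd2, a transporter of very long chains, was lower (-1.20). The mitochondrial genes were led by Hadh (3.79), the dehydrogenase of hydroxyacyl-CoA, Etfa (2.86), which takes electrons from the acyl-CoA dehydrogenases, and Decr1 (2.51), the reductase for unsaturated chains. Here 10 of 15 measured genes were higher, and Cpt1b, the muscle form of the enzyme that lets fatty acids into mitochondria, was lower (-1.48). Bdh1, of ketone bodies, and Cpt1a, the liver and kidney form of that enzyme, differed by -0.63 and -0.06. Cpt2, which acts after this enzyme in the entry of fatty acids, was at 6.71 on the KAT5 KO array and 4.76, under background, on the wild-type array, at least 2.99-fold higher. Hadhb, which carries the thiolase activity for long chains, was at 13.48 on the KAT5 KO array and 12.15 on the wild-type array, 2.52-fold higher. Of 17 relatives of the families that the symbols leave out, 11 were measured, 6 were at least 2-fold higher and 0 were lower. Only the KAT5 KO array was above background for 1 of the 11. Of the 10 relatives above background on both arrays, 5 were higher, with a median difference of 0.98. The relatives were led by Slc27a2 (7.88), a carrier and synthetase of very long chains. Gcdh (5.14), the glutaryl-CoA dehydrogenase of lysine breakdown, and Acsf3 (1.89), the malonyl-CoA synthetase of mitochondria, followed. The synthetases Acsbg2 (-0.43) and Acsbg1 (-0.22) had the most negative differences and were within 2-fold.

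**Figure D3:**
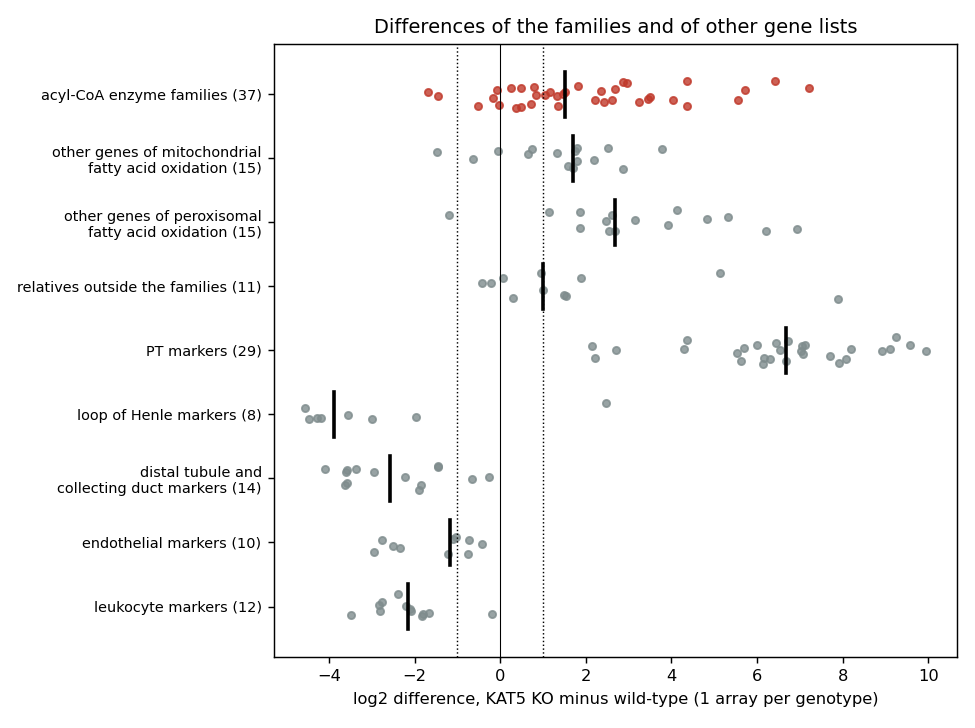
Log2 differences, KAT5 KO minus wild-type (x axis), of the 37 measured acyl-CoA enzyme genes and of the measured genes of 8 other lists, with 1 point per gene, the number of genes in parentheses, the median as a thick bar and dotted lines at 2-fold. The acyl-CoA genes centre at 1.503, below the PT markers (6.66) and above the markers of other kidney cells and leukocytes.

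The regulators of these pathways differed in direction. Ppara, the gene of PPARα, was at 11.11 on the KAT5 KO array and 5.68 on the wild-type array, 43.0-fold higher. Hnf4a, a nuclear receptor that maintains PT identity and is also one of the PT markers, was at 14.17 on the KAT5 KO array and 7.87 on the wild-type array, 78.6-fold higher. Ppargc1a, a coactivator of mitochondrial genes, was at 14.66 on the KAT5 KO array and 14.89 on the wild-type array and so nearly level. Rxra, the gene of a partner of PPARα, was at 8.39 on the KAT5 KO array and 7.11 on the wild-type array, with a difference of 1.29. Pparg, the relative of Ppara known from fat and macrophages, was at 6.32 on the KAT5 KO array and 8.54 on the wild-type array, 4.63-fold lower. Of 18 targets of PPARα outside the families, 14 were measured. Of these, 7 were at least 2-fold higher and 2 were lower, beside 17.7% and 15.9% of all measured genes. The median difference was 1.04. Only the KAT5 KO array was above background for 3 of the 14. Of the 11 targets above background on both arrays, 4 were higher and 2 lower, with a median difference of 0.66. Some of the targets, among them Ehhadh, Cpt1a, Cpt2 and Hadhb, were also counted above with the other genes of fatty acid oxidation. Cyp4a14, which hydroxylates fatty acids, was at 17.07 on the KAT5 KO array and 5.47 on the wild-type array, whereas Cd36, the fatty acid receptor, was at 9.11 on the KAT5 KO array and 11.75 on the wild-type array. Cyp4a10, a close relative of Cyp4a14, was higher by 9.59, and Ehhadh, named above, was the next. On the other side followed Pdk4 (-1.22), the kinase that holds back pyruvate dehydrogenase, and Plin2 (-0.61), of the lipid droplet coat, which was within 2-fold.

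In the 250 bases before the start of transcription, motifs of such factors were searched. Of the 41 genes, 34 had a promoter in the RefSeq table. The DR1 motif of PPAR-RXR dimers, AGGTCANAGGTCA on either strand with up to 2 mismatches, was found for 2 of these genes, Acot12 and Acot4, and for 3.72% of all genes in the table. In Acot12 the match lay on the opposite strand at chr13:91741411-91741423 with 1 mismatch, read along the gene as TGACCTCTCACCT, all of it the match. The HNF4 motif CAAAGTCCA, which resembles part of DR1 and was searched with up to 1 mismatch, was found for 1, Acadm, and for 8.04% of all genes. The HNF1 motif GTTAATNATTAAC, with up to 2 mismatches, was found for 1, Acsm2, at a second start inside the gene, and for 1.45% of all genes. These matches are letters in a window and were not read as sites.

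Next to the PT markers, the acyl-CoA genes differed less. Of the 37 measured genes, 17 had a difference above that of the lowest PT marker (Slc9a3, 2.14) and 1, Acsm1, had one above the median of the PT markers. The PT markers were higher on the same array on which the acyl-CoA genes were, and their part in the result was not tested. At the threshold itself, Acot1 (1.04) and Acot6 (at least 1.17) lay just past 2-fold, and Acad10 (0.84) and Acot8 (0.80) just short of it.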

How the data were processed

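Total RNA of PT cells was labelled with biotin and hybridised to Clariom S mouse arrays, 1 for each genotype. The values are log2 levels of 28846 probe sets, which the authors made with the RMA method of the Transcriptome Analysis Console. Versions of the software and the genome build are not given in the sources used here. RMA normalizes the arrays to each other, so that a large change in some genes can move others. Of the probe sets, 19572 carried 1 gene symbol in the platform annotation, 0 carried several and 9274 carried none and were left out. Levels were averaged for the 55 genes with several probe sets, none of them an acyl-CoA gene.

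The background level was the higher of the arrays' 95th percentiles of 1448 olfactory, vomeronasal and taste receptor genes. Levels under it were raised to it before the difference was taken, and 2-fold was the threshold of size. The ceiling of the scale was 19.93, which 0 acyl-CoA genes reached. Median levels over all probe sets were 5.50 on the KAT5 KO array and 5.59 on the wild-type array. Arrays give no read depth, and their number limits the precision. Every acyl-CoA gene counted here is named, and of the other pathway lists up to 3 genes with the widest differences each way, taken from those above background in both genotypes. Cpt2, Hadhb and the PT marker Slc9a3 were added after their values were seen. Marker lists are otherwise given by counts and medians. Members, roles and lists were chosen with earlier results of these data known. Some genes of these families are not reported here. Promoter sequences and gene order came from RefSeq, GRCm38.p6. The steps were tested on simulated data. Computations used Python 3.11.15, numpy 2.4.6, pandas 2.3.3, statsmodels 0.14.6 and matplotlib 3.10.9.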

Additional observations from a re-analysis of the deposited data

How the results depend on the processing

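Results were computed again after scaling both arrays to a common median, after quantile normalization, without the loess trend on mean level (span 0.3), with the background at the receptor genes' 99th percentile, at the overall median of the probe sets or left out, with only the brightest probe set of a gene, and at 1.5-fold and 3-fold. A difference was counted as moved when it shifted by more than 1.5-fold, since no spread between replicates exists. Apart from the thresholds, the number of acyl-CoA genes at least 2-fold higher ranged from 22 to 24, the number lower stayed at 2, and the median ranged from 1.35 to 2.04, the highest being the mean in place of the median. At 3-fold, 1 gene was lower, Acsl5. Acot1 and Acot6 were within 2-fold with the background level at the 99th percentile (0.42 and 0.41) or at the median of all probe sets (0.77 and 0.75), because their levels lie close to background. Lower bounds moved too. With the background at the 99th percentile, that of Acsm5 was 4.78 (5.55 as reported) and that of Acot4 was 2.21 (2.97 as reported). With no background level, Acot4 differed by 3.87 and Acsm4 by -0.998 (-0.07 as reported). No other measured acyl-CoA gene changed its side of 2-fold under the alternatives, and Acadsb, near 0, ranged from -0.15 to 0.05. Kat5 ranged from -1.68 to -1.44. No paired analysis was possible because each genotype has 1 array, and for the same reason no array could be left out.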
